A study of Brassica rapa subsp. pekinensis with 2 samples.

Results

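Chloroplast pentatricopeptide repeat (PPR) proteins were examined in Chinese cabbage (Brassica rapa) as the reference transcripts whose description held both "pentatricopeptide repeat" and "chloroplastic" and not "mitochondrial". This rule took 60 of the 34213 transcripts that matched the reference annotation. The 60 transcripts were named after 55 Arabidopsis proteins, 5 of which were each represented by 2 B. rapa copies. Levels were compared between a library of anthers (Ant) and a library that joined roots, stems and leaves (Mix), 1 of each, both from the double haploid line FT. Ant pooled anthers of different stages taken from flower buds, and Mix pooled whole seedlings with 4 true leaves. The labels gave a vernalization of 20 days at 4 °C for both, whereas the methods stated it for Ant alone. Organ, plant age and possibly cold treatment therefore cannot be told apart. Each group was a single library, so no difference below had a replicate behind it, and no p-value was computed.

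PPR proteins are helical-repeat proteins encoded in the nucleus, made in the cytosol and imported into plastids or mitochondria, where each binds a particular stretch of organelle RNA. P-class members mostly protect RNA ends, help translation or assist the splicing of group II introns, whereas PLS-class members mostly direct the change of single cytidines to uridines (RNA editing). In leaves the chloroplast members serve transcripts for the photosystems, the ATP synthase, Rubisco and the NDH complex. Plastids of anthers are largely non-green, and those of the tapetum make fatty acids for the pollen coat. Many PPR genes lack introns and are weakly transcribed.

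Estimated counts summed to 216371346 for Ant and 190816341 for Mix, of which the 60 members took 51872 and 81479. A window of 500 kb starting 15 Mb along chromosome A06 held 56.2% of the Mix sum against 2.07% of the Ant sum, and no member lay in it. Levels are given as FPKM, fragments scaled to transcript length and to the library total, and log2 ratios as Ant over Mix after adding 1 to each FPKM, which makes differences between weakly expressed transcripts look smaller. Ratios were shifted as a whole. The median was 0.54 for the 17562 transcripts of any kind whose FPKM reached 1 in Ant and in Mix, and it was -0.17 when FPKM was recomputed without the A06 window. A member at 0.54 therefore sat level with the median transcript. Most markers of an organ were higher in the library labelled for it. All 24 chlorophyll a-b binding proteins and all 5 Rubisco small chains were higher in Mix (summed FPKM 10374 against 21.3, and 8746 against 5.32), all 10 casparian strip membrane proteins of the root endodermis were listed at 0 in Ant, and 21 of 28 transcripts described as pollen-specific were higher in Ant (summed FPKM 2826 against 95.4). Other anther markers were weaker. Both ABORTED MICROSPORES transcripts had a summed FPKM of 3.04 in Ant and 0 in Mix. For the 2 tapetum transcripts the sum was 10.4 in Ant and 0.438 in Mix, although 1 of them was higher in Mix. Both callose synthase 5 transcripts (sum 0.899 in Ant and 0.0354 in Mix) and both fatty acyl-CoA reductase 2 transcripts (0.428 and 0) were higher in Ant.

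Chloroplast PPR transcripts had a median FPKM near 1 in both libraries. Their median FPKM was 1.06 in Ant and 0.978 in Mix, against 0.877 and 0.574 for all reference transcripts. Among transcripts whose FPKM reached 1 in at least 1 library, the members had medians of 1.99 in Ant and 2.31 in Mix. The medians of all such reference transcripts were 4.37 and 2.46, so these members were lower in Ant and nearly level in Mix. FPKM ranged from 0.0584 to 15.2 in Ant and from 0 to 24.4 in Mix, and it was above 5 for 3 members in Ant and for 10 in Mix. FPKM summed over the 60 members was 113 in Ant and 151 in Mix. The most abundant member in Mix, the GUN1 transcript, made up 16.2% of that Mix sum, and without it the sum was 127. Across the 60 members the levels in the libraries had a Spearman rho of 0.65, a description of transcripts that share both libraries.

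The leading members differed between the organs. In Ant the order was At3g26630 (FPKM 15.2 in Ant and 5.22 in Mix), CRR2 (7.46 and 2.60), EMB2750 (5.78 and 10.9), At1g79080 (4.48 and 5.26) and At5g48730 (4.39 and 1.53). In Mix it was GUN1 (24.4 in Mix and 3.27 in Ant), EMB2750 (10.9 and 5.78), SOT1 (10.7 and 2.95), PPR4 (8.60 and 4.21) and MEE40 (5.50 and 2.28). EMB2750 was the only member among the first 5 of both. Members are called here by the symbol of the Arabidopsis protein where a role was listed, and otherwise by its locus.

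**Figure D1:**
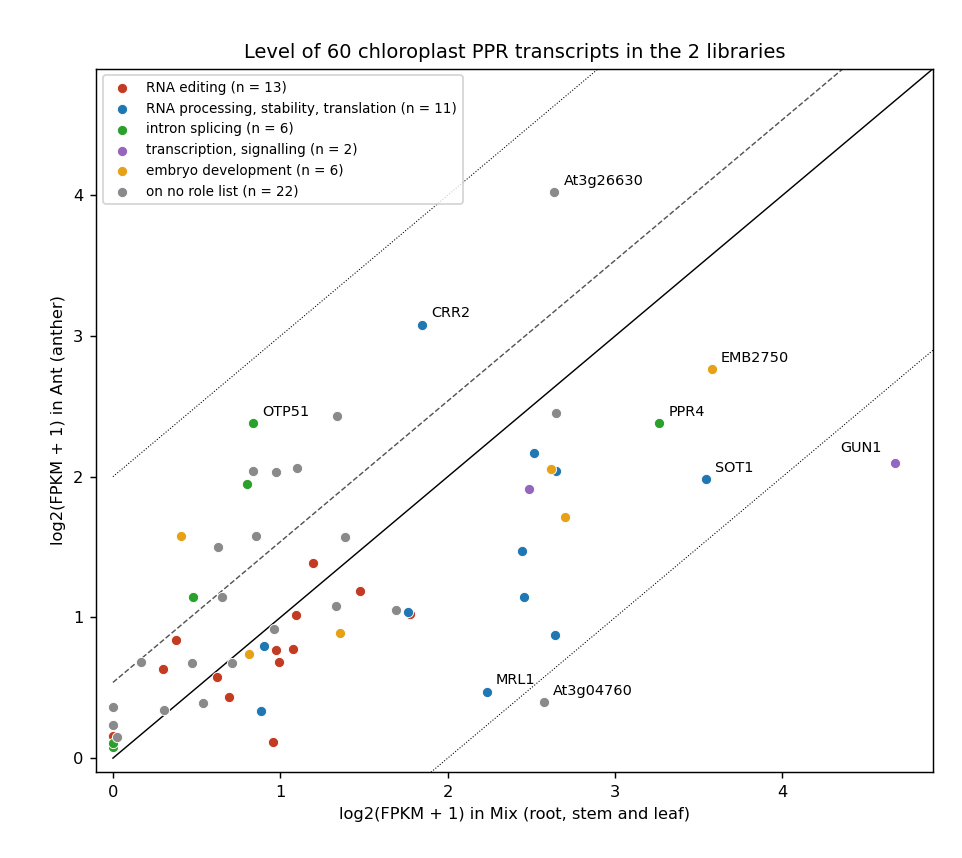
Each point is 1 of the 60 chloroplast PPR transcripts, with log2(FPKM + 1) in Mix on the x axis and in Ant on the y axis, coloured by the role known for the Arabidopsis protein. The solid line marks equal levels, the dashed line the median ratio of 0.54, and the dotted lines a log2 ratio of 2 or -2. Most points lie below an FPKM of 5 in both libraries, and GUN1 and At3g04760 lie beyond the lower dotted line.

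With 1 added to FPKM, ratios of the members were small beside those of mRNA at large. Over all 60 members the median log2 ratio was -0.07, with 26 above 0 and 34 below, whereas 59.1% of all reference transcripts were above 0. FPKM reached 1 in at least 1 library for 38 members, of which 24 reached it in both, 9 in Ant only and 5 in Mix only. Among these 38, none had a log2 ratio above 2, where the background over the 19909 reference transcripts that passed the same filter was 21.2%, and 2 had one below -2, where it was 9.48%. At a cutoff of 1, added after the values were seen, 8 of the 38 were above and 6 below, against 41.0% and 21.7% of the background. The median over the 38 was -0.30 (95% order-statistic interval -0.64 to 0.49), against 0.62 for the background, and 15 of them, or 39.5%, were above 0 (Wilson interval 25.6 to 55.3%), against 62.2%. After centring on the median transcript, 5 of the 38 were below -2 (background 14.7%) and none above 2 (15.2%), 17 were below -1 (30.3%) and 1 above 1 (28.4%), and the median was -0.83. Without the A06 window 6 were below -2 (17.2%) and none above 2 (16.3%), with a median of -0.93. The counts below -2 thus lay near the background share under both rescalings, and those above 2 were 0 under each scaling with a pseudocount of 1. The background was not matched for level, and adding 1 makes ratios of weak transcripts smaller. With a pseudocount of 0.1, 2 members were above 2 and 4 below -2, without a background share beside them.

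**Figure D2:**
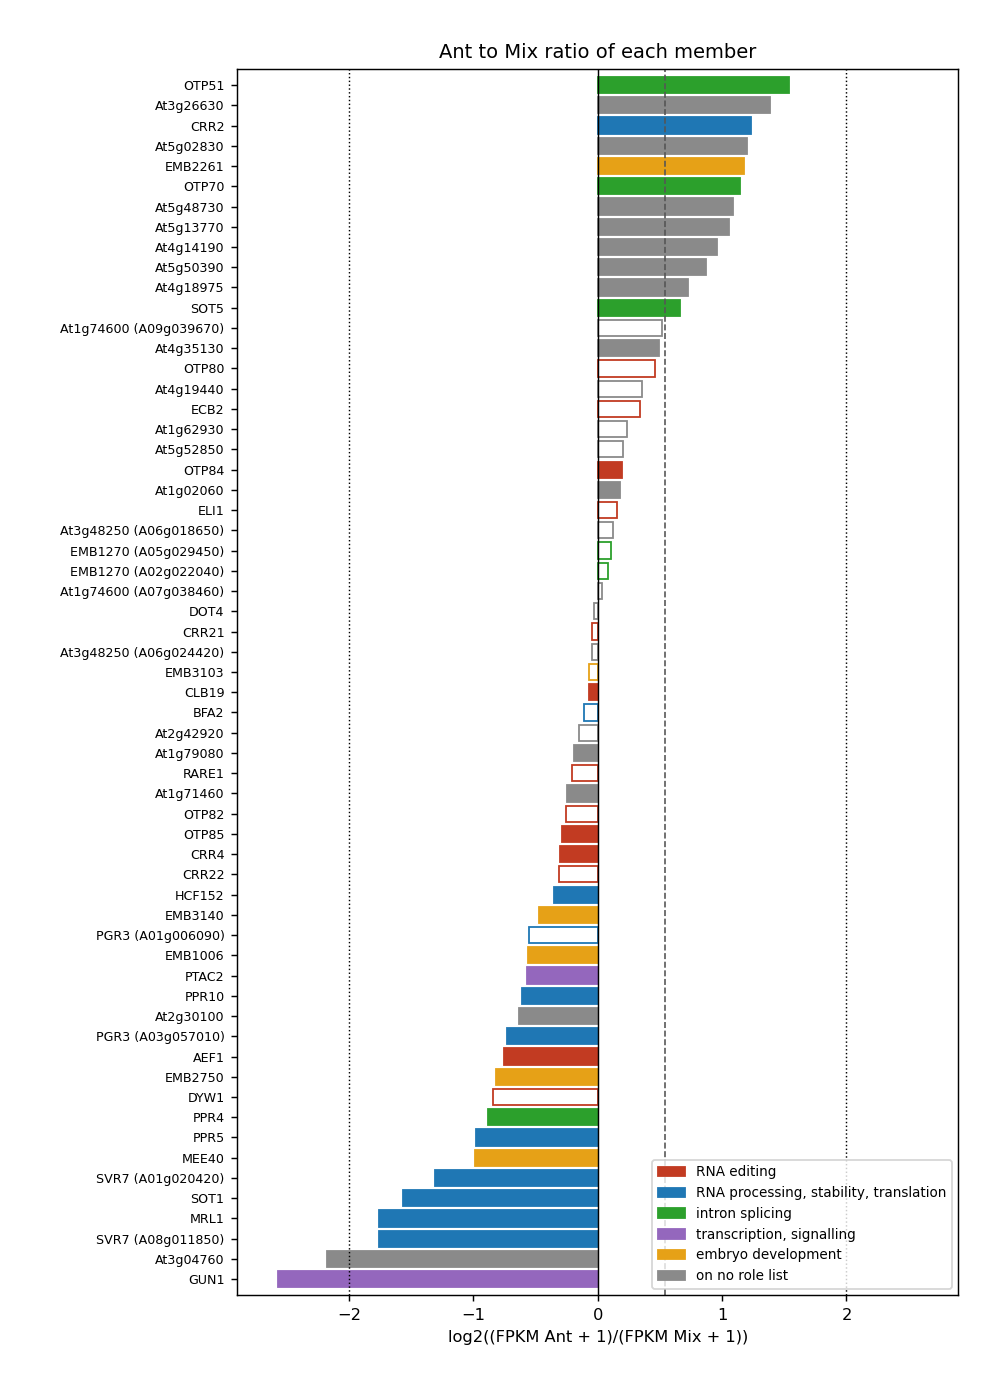
Bars give the log2 ratio of Ant to Mix for each of the 60 members, filled where FPKM reached 1 in either library and open where it did not, and coloured by role. The dashed line is the median transcript at 0.54 and the dotted lines are at 2 and -2. The lower end holds GUN1 at -2.57 and 5 bars of RNA processing factors among the lowest 8, and the upper end is OTP51 at 1.54.

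GUN1, a chloroplast protein known in Arabidopsis for signalling from the plastid to the nucleus, had the lowest ratio of all members. Its transcript BraA04g022770.3C (A04, 16817387 to 16824219, 8 exons; coordinates are those of B. rapa v3.0) had FPKM 3.27 in Ant and 24.4 in Mix, 7.47-fold lower in Ant. The log2 ratio was -2.57, or -3.43 without the A06 window. Its estimated counts were 2720 in Ant and 20197 in Mix. PTAC2, a component of transcriptionally active plastid chromosomes that is needed by the plastid-encoded RNA polymerase, was less far apart. BraA07g038570.3C had FPKM 2.77 in Ant and 4.60 in Mix, a log2 ratio of -0.57. These were the members found of the 3 loci listed for transcription and signalling.

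Factors that process, stabilise or help translate plastid RNA were mostly lower in Ant. The list found 11 transcripts of 9 loci, with 10 of the 11 below 0 and a median log2 ratio of -0.73, where 59.1% of all reference transcripts were above 0. Of the 9 that passed the filter, 8 were below 0 and 4 below -1, with a median of -0.98, and after centring 8 were again below 0 and 1 above, with a median of -1.51.

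The lowest were factors tied to the ATP synthase, Rubisco and the ribosome. SVR7, needed for normal accumulation of ATP synthase, had 2 copies on the same side. BraA08g011850.3C (A08, 10294347 to 10296422) was at FPKM 0.836 in Ant and at 5.23 in Mix. The values of BraA01g020420.3C (A01, 10961227 to 10964833) were 1.21 and 4.48. Their log2 ratios were -1.76 and -1.31, a gap of 0.45. MRL1 stabilises the mRNA of the Rubisco large subunit, and its reference transcript BraA01g003490.3C (A01, 1729064 to 1734775, 18 exons) had FPKM 0.387 in Ant and 3.70 in Mix, a log2 ratio of -1.76. An assembled isoform of MRL1 with 19 exons was more abundant than the reference form in both libraries, at 3.66 and 9.96, and the isoforms together gave -1.54. SOT1, which takes part in the maturation of plastid ribosomal RNA, had FPKM 2.95 in Ant and 10.7 in Mix for BraA06g041820.3C (A06, 27530961 to 27533096), a log2 ratio of -1.56.

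The other processing factors were nearer to 0. PPR5, whose maize counterpart protects a plastid glycine tRNA precursor, had FPKM 1.77 in Ant and 4.45 in Mix (log2 ratio -0.98). PGR3, which acts on petL and ndh transcripts, had 1.05 and 2.39 in its A03 copy (-0.73) and 0.26 and 0.848 in its A01 copy (-0.55). PPR10, whose maize counterpart guards RNA ends next to atpH, had 3.11 and 5.26 (-0.61). HCF152, needed for transcripts of the psbB operon, had 3.49 and 4.72 (-0.35), and BFA2, needed for the transcript of atpH and atpF, had 0.736 and 0.872 (-0.11). All of these were lower in Ant, the last pair by only 1.35-fold and 1.18-fold.

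CRR2 was the exception on this list. It is needed for the cleavage between rps7 and ndhB in Arabidopsis, and BraA01g025070.3C (A01, 14818958 to 14820925, 1 exon) had FPKM 7.46 in Ant and 2.60 in Mix, 2.87-fold higher in Ant. Its log2 ratio was 1.23, or 0.55 without the A06 window.

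Intron splicing factors included the member with the highest ratio. Of 6 transcripts found for this list, 5 were above 0, and of the 4 that passed the filter 3 were, where 62.2% of the background was. After centring 3 of the 6 were above 0. Both EMB1270 copies, with FPKM near 0, were then at -0.46 and -0.43 only because centring takes 0.54 from every ratio. Without the A06 window they were at 0.08 and 0.11. The median of the 4 was 0.90 as deposited, 0.37 after centring and 0.54 without the A06 window. OTP51, which splices an intron of ycf3, had the highest ratio of all members. BraA07g005060.3C (A07, 3922373 to 3924838, 2 exons) had FPKM 4.21 in Ant and 0.789 in Mix, 5.33-fold higher in Ant, with a log2 ratio of 1.54 that was 1.10 without the A06 window. OTP70, needed for rpoC1 splicing, had 2.85 and 0.745 (1.14) for BraA01g016020.3C (A01, 8481382 to 8482968), and SOT5, which acts on plastid introns, had 1.21 and 0.393 (0.66). The OTP70 gene lies within the span of an assembled 12-exon transcript of the same strand with FPKM 88.3 in Ant and 0.621 in Mix. How reads were divided between these was not tested.

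The remaining splicing factors differed from these. PPR4, which acts in the trans-splicing of rps12, had FPKM 4.21 in Ant and 8.60 in Mix for BraA10g031640.3C (A10, 19708905 to 19712774, 10 exons), a log2 ratio of -0.88. Both copies described as EMB1270 were listed at 0 in Mix and had FPKM 0.0584 and 0.0779 in Ant, or 9 and 14 estimated counts. Against a floor of 6 estimated counts in Mix they were at least 1.41-fold and at least 2.17-fold higher in Ant as deposited. These bounds become smaller without the A06 window, which multiplies FPKM by 1.87 in Mix and by 1.02 in Ant. These 2 were among the shorter members, with coding lengths of 630 and 726 nt.

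**Figure D3:**
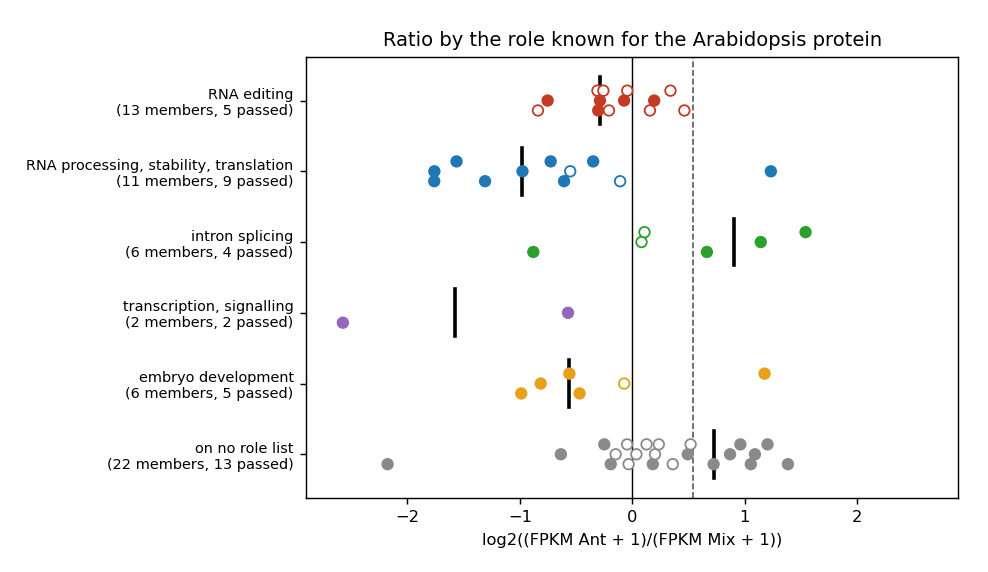
Points give the log2 ratio of Ant to Mix for each member by role list, filled where FPKM reached 1 in either library, and black bars mark the median of the filled points. The processing list has its median at -0.98 with CRR2 alone to the right at 1.23, whereas the splicing list has its median at 0.90 with PPR4 alone to the left at -0.88.

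RNA editing factors were weakly expressed, with deposited ratios close to 0 that lay below the median transcript. The 13 transcripts had a median FPKM of 0.702 in Ant and 0.965 in Mix and a highest value of 2.42, and 5 passed the filter. The 13 ratios had a median of -0.21, with 4 above 0, where 59.1% of all reference transcripts were above 0. The median of the 5 was -0.29 as deposited and -0.83 both after centring and without the A06 window. After centring none of the 5 was above 0, where 10331 of the 19909 background transcripts were. AEF1, which edits atpF, had FPKM 1.03 in Ant and 2.42 in Mix (log2 ratio -0.75). CRR4, which creates the start codon of ndhD, had 0.71 and 1.11 (-0.30), and OTP85, which edits another ndhD site, had 1.28 and 1.78 (-0.29). As deposited, none of the 5 was past a log2 ratio of 1 in either direction. Of the background 41.0% was above 1 and 21.7% below -1, and the 5 are too few to be read against these shares. AEF1 was at -1.29 after centring and at -1.43 without the A06 window.

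CLB19, which edits rpoA and clpP, was nearly level at 1.03 and 1.13 (-0.07). OTP84, with sites in ndhB, ndhF and psbZ, had 1.62 and 1.29. Its ratio was 0.19 as deposited, -0.34 when centred and -0.36 with the A06 window left out, so its direction depended on the scaling.

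Editing factors under the filter included a few with larger folds on few counts. The member described as DWY1, read here as DYW1, the partner of CRR4 at the ndhD start codon, had FPKM 0.0823 in Ant and 0.936 in Mix, from 13 and 137 estimated counts. That was 11.4-fold lower in Ant, although its log2 ratio with the pseudocount was only -0.84. OTP80, an rpl23 editing factor, had 0.789 and 0.298, and ECB2, an accD editing factor, had 0.554 and 0.228, 2.65-fold and 2.43-fold higher in Ant as deposited. ELI1 was listed at 0 in Mix with FPKM 0.115 in Ant, at least 8.53-fold higher as deposited. An assembled single-exon transcript across the same gene was present in both libraries, at 1.13 in Ant and 1.45 in Mix. CRR22, OTP82, RARE1 and CRR21 had FPKM between 0.354 and 0.702 in Ant and between 0.539 and 0.989 in Mix, with log2 ratios from -0.31 to -0.04.

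Members on the embryo list, named for embryo defects in Arabidopsis, were mostly lower in Ant. This list left out both EMB1270 copies, which have such a name but were on the splicing list, at log2 ratios of 0.08 and 0.11. Listed embryo loci without the chloroplast label are not members, and most of their transcripts went the other way. Above 0 were EMB1025 (0.95), EMB976 (0.59) and the copies of EMB1417 (1.22, 0.27, 1.61 and 2.46), whereas EMB175 (-0.25) and EMB2217 (-0.05) were below. The direction given here thus holds for the members only. Of the 6 on the embryo list, 5 were below 0, with a median of -0.51, where 59.1% of all reference transcripts were above 0. The median of the 5 that passed the filter was -0.56 as deposited, -1.10 after centring, -1.33 without the A06 window and -1.36 with FPKM rescaled to the same sum. MEE40 (BraA04g005960.3C) had FPKM 2.28 in Ant and 5.50 in Mix (log2 ratio -0.99), EMB2750 (BraA05g038990.3C) had 5.78 and 10.9 (-0.81), EMB1006 had 3.16 and 5.13 (-0.56) and EMB3140 had 0.851 and 1.56 (-0.47). EMB3103 was level at 0.668 and 0.754. EMB2261 (BraA06g017890.3C, A06, 9959451 to 9962078) went the other way with 1.99 and 0.324, 6.15-fold higher in Ant and a log2 ratio of 1.18. The deposited annotation gave pollen development to 2 members, and these lay on opposite sides: EMB2750, and At5g48730 with FPKM 4.39 in Ant and 1.53 in Mix (1.09). Across the 7 members annotated to embryo development, 3 were above 0 and 4 below.

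Of the 22 members on no role list, 15 were above 0, not far from the 59.1% of all reference transcripts, and their median was 0.22. After centring, the 13 that passed the filter were split into 7 above 0 and 6 below, with a median of 0.19. At3g26630 was the most abundant chloroplast PPR transcript in Ant. BraA06g038180.3C (A06, 25394468 to 25395499, 1 exon) had FPKM 15.2 in Ant and 5.22 in Mix, a log2 ratio of 1.38 that was 0.62 without the A06 window. At5g02830 (12 exons) had 3.11 and 0.787 (1.20), and At5g13770 had 3.09 and 0.968 (1.05). With At5g48730, these were the 4 members off the role lists with a log2 ratio above 1.

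In the other direction At3g04760 stood alone among them. BraA05g040370.3C (A05, 27386942 to 27388660, 1 exon) had FPKM 0.318 in Ant and 4.96 in Mix, 15.6-fold lower in Ant, the largest fold among members not listed at 0. Its log2 ratio was -2.18, and it was the only member besides GUN1 below -2. At2g30100 had 1.08 and 2.23 (-0.64), At1g71460 had 1.12 and 1.52 (-0.25) and At1g79080 had 4.48 and 5.26 (-0.19). The cutoff of -2 fell between At3g04760 at -2.18 and the A08 copy of SVR7 at -1.76.

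Most of the other members off the role lists were weak. At4g14190 (FPKM 3.17 in Ant and 1.14 in Mix, log2 ratio 0.96), At5g50390 (1.82 and 0.546, 0.87) and At4g18975 (1.99 and 0.81, 0.72) were higher in Ant under each scaling. At1g02060 had 1.97 and 1.62, and its ratio of 0.18 turned to -0.36 when centred and -0.42 without the A06 window. At4g35130, the longest member with a coding length of 3753 nt, had 1.21 and 0.57, and its ratio of 0.49 turned to -0.04 when centred. The direction of both thus depended on the scaling.

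Under the filter, DOT4, known for leaf vein patterning in Arabidopsis, was level at FPKM 0.601 in Ant and 0.638 in Mix. At2g42920 had 0.313 and 0.455, and At5g52850 had 0.594 and 0.386. Members described as At1g62930 and At4g19440 were listed at 0 in Mix with FPKM 0.177 and 0.283 in Ant. As deposited, they were at least 5.72-fold and at least 4.25-fold higher against the floor. With ELI1 and both EMB1270 copies, these were the 5 members listed at 0 in Mix, and no member was listed at 0 in Ant.

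Copies of the same Arabidopsis protein were alike in some pairs and not in others. On the log2 scale with 1 added to FPKM, the widest gap among the 5 pairs was 0.48. Most copies, but not those of SVR7, were below FPKM 1 in both libraries, where that scale compresses differences. The gap of 0.48 was for At1g74600, with FPKM 0.607 in Ant and 0.122 in Mix in the A09 copy and 0.269 and 0.238 in the A07 copy. Without the added 1, these copies were 4.98-fold and 1.13-fold higher in Ant. Of the At3g48250 copies, BraA06g024420.3C had 0.885 and 0.947, nearly level with an Ant to Mix fold of 0.935, and BraA06g018650.3C had 0.112 and 0.019, 5.91-fold higher in Ant on 48 and 8 estimated counts. The PGR3 copies were lower in Ant by 2.28-fold and 3.26-fold, and those of SVR7 by 6.25-fold and 3.70-fold. Division of reads between near-identical copies is uncertain.

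Gene structure varied among the members. A single exon was annotated for 36 of the 60 members, against 22.5% of all reference transcripts, 78.8% of PPR transcripts labelled mitochondrial and 76.3% of those with neither label, and the exon number of the others ran from 2 to 18. The single-exon members had a median log2 ratio of -0.17 (12 of 36 above 0) and the others of 0.13 (14 of 24 above 0). Over all reference transcripts the median was 0.11 and 59.1% were above 0, so the members with several exons lay near the background. The median coding length was 2073 nt, against 1038 nt for all reference transcripts. Members lay on all 10 chromosomes, with 11 each on A01 and A06 and 2 on A03. None of the 168 circular RNAs came from a member gene or from any other PPR gene in the table. Other assembled transcripts overlapped 5 members, all on the same strand, and adding the isoforms that share a splice junction changed 2 members: MRL1, and At4g35130 from 0.49 to 0.38.

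The word chloroplastic in a description is a prediction carried over from the Arabidopsis protein, and other annotation only partly matched it. The chloroplast term of Gene Ontology was held by 53 of the 60 members and the mitochondrion term by 23, with 21 holding both and 5 neither. At3g48250 (BIR6) and At1g74600 (OTP87) act on mitochondrial RNA in Arabidopsis, and the 2 copies of each had log2 ratios between -0.05 and 0.52. Of the 51 loci on the role lists, 35 were found among the members and 5 were not found in the table. The other 11 were in the table with a mitochondrial label, with both labels or, for most, with neither. These included CRP1, labelled mitochondrial, with FPKM 5.75 in Ant and 8.15 in Mix, and CRR28, labelled for both organelles, with 0.124 and 2.26. Both were lower in Ant, CRR28 by a log2 ratio of -1.53. Of 4 copies described as At4g21190 (EMB1417), with neither label, the A10 copy was highest, with 6.66 and 0.396 (2.46). The others were at log2 ratios of 1.22, 0.27 and 1.61.

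The chloroplast members were set beside PPR transcripts of other labels. For 137 transcripts labelled mitochondrial the median log2 ratio was 0.26 over all and 0.74 over the 58 that passed the filter. Above 0 were 50 of these 58, or 86.2%, against 62.2% of the background. For 266 PPR transcripts with neither label the median was 0.19 over all and 0.65 over the 101 that passed, with 77, or 76.2%, above 0. The respective medians of the chloroplast members were -0.07 and -0.30. The chloroplast median was also the lowest of these after centring, with medians of 0.21, 0.11 and -0.83 for the mitochondrial, unlabelled and chloroplast transcripts, and without the A06 window, with 0.23, 0.24 and -0.93. A log2 ratio above 2 was seen for 3 mitochondrial and 3 unlabelled transcripts. These were 5.17% and 2.97% of those that passed, against 21.2% of the background. These are counts over transcripts of the same 2 libraries, and the differences between the sets were not tested.

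Other proteins labelled chloroplastic gave a median of -0.76 over the 1232 that passed. Of these, 331, or 26.9%, were below -2 and 98, or 7.95%, above 2, against 9.48% and 21.2% of the background. The corresponding share below -2 was 5.26% for the chloroplast PPR members. Partners of PPR proteins in plastid RNA metabolism differed among themselves. Of the background, 62.2% was above 0 and 21.2% above 2, with 21.7% below -1 and 9.48% below -2. All 8 chloroplast ribonucleoproteins that passed, which bind and stabilise many plastid RNAs, were below -1 and 6 were below -2 (median -2.78, summed FPKM 15.2 in Ant and 180 in Mix for all 10). For factors of the plastid RNA polymerases, 8 of 9 were below 0 and 3 below -2 (median -1.02). The editing cofactors MORF and ORRM, of either organelle, had 4 of 10 above 0 and 1 below -2 (median -0.29). The CRM domain splicing factors had 4 of 6 above 0 and 1 above 2 (median 0.90), or 66.7% and 16.7%, near the background shares. In bulk samples fewer plastid-rich cells and less RNA per cell cannot be told apart.

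**Figure D4:**
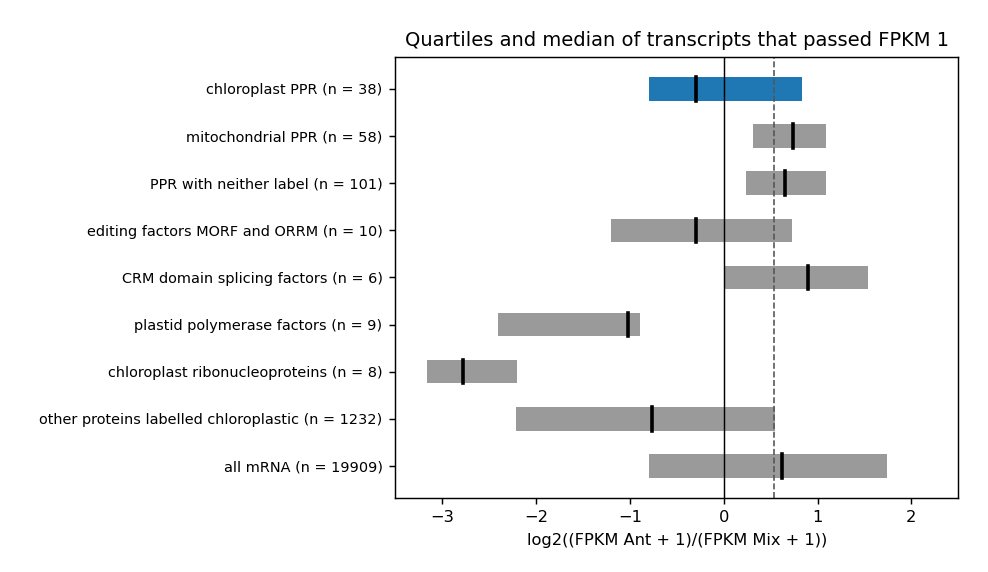
Bars span the lower to the upper quartile of the log2 ratio of Ant to Mix over the transcripts of each set whose FPKM reached 1 in Ant or Mix, black lines mark medians, and n is the number of transcripts. Chloroplast PPR transcripts (blue, median -0.30) sit left of mitochondrial PPR transcripts (0.74) and of all mRNA (0.62), and right of chloroplast ribonucleoproteins (-2.78). The dashed line is the median transcript at 0.54.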

How the data were processed

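Total RNA of both groups was depleted of ribosomal RNA and sequenced on an Illumina platform. The authors trimmed reads with Cutadapt, used Bowtie2 and TopHat2 for mapping to B. rapa v3.0 and assembled transcripts with StringTie, and the submitters' processing notes also name HISAT2. The deposited FPKM came from StringTie and Ballgown by the methods but from Cuffdiff by the results, so its source is uncertain. Each estimated count in the deposited table followed FPKM multiplied by length, so counts were used only as a guide to depth. Where a library held no more than 6 of them, a floor per library chosen after values were seen, the fold was taken against that floor. The deposited counts of circRNA junction reads served only to look up host genes. The strand setting of the counting was not stated.

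Reference transcripts are those of class code =. A filter of FPKM of at least 1 in either library, a pseudocount of 1 and a cutoff at log2 ratios of 2 and -2 were used. The cutoff was that of the study, without its p-value. The 95% intervals, order-statistic for the median of the 38 members and Wilson for their share above 0, treat members as independent draws. They show how uncertain the median and the share would be over such draws, not the spread among members and not variation between plants. The floor covers counting error only, and folds against it hold for the deposited scaling. Named were the 8 highest and 8 lowest ratios, the 5 most abundant members in each library, members of the role lists and the 5 pairs of copies. The other members were then named as well, after their values were seen. Members and lists were chosen with earlier results of these data known. Alternatives were other pseudocounts, filters and scalings, added isoforms and members with both labels. The calculations used Python 3.11.15, pandas 2.3.3, NumPy 2.4.6 and SciPy 1.17.1 and were tested on simulated data. No sequence was used here.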

Additional observations from a re-analysis of the deposited data

How the results depend on the processing

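With pseudocounts of 0.1 and 0.01, 2 members were above 2 and 4 below -2, and the splicing median was 1.61 and 1.76. Where FPKM had to reach 5, 1 member was below -2, the median was -0.81 and 18.2% were above 0. No background share is given for these pseudocounts, for this filter or for the rescaling to the same sum. Counts under these settings therefore cannot be set against all transcripts. After centring, without the A06 window and with FPKM rescaled to the same sum, 5, 6 and 5 members were below -2. Under these 3 scalings the median of the members was -0.83, -0.93 and -0.95, that of the editing list -0.83, -0.83 and -0.78, and that of the embryo list -1.10, -1.33 and -1.36. At a cutoff of 1, 8 members were above and 6 below, against 41.0% and 21.7% of the background. The cause was not tested beyond the construction of each setting. The interval used to judge a median was the whole range of its members for the lists of 2 to 5 passing members, so no stability is read from it. The splicing median turned to -0.88 where FPKM had to reach 5, since PPR4 alone was left. Among the 38 ratios of single members, 3 changed sign after centring, 2 without the A06 window and 2 after rescaling, none of them past 2, and none changed sign under the other settings. With a single library per group, low FPKM limits what can be read from the 22 members under the filter. No paired analysis was possible because each group held 1 library and no test was run.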
